A study of Homo sapiens with 4 samples.

Results

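The collagen gene family was examined in MDA-MB-231, a mesenchymal-like line of triple-negative breast cancer cells, with and without AURKA knockdown. Members were all genes whose symbol is COL, a type number, A and a chain number, and 43 of the 20137 genes in the tables matched. A first question was which of them reached 1 FPKM (sequenced fragments relative to the length of a transcript and the depth of the library) in at least 2 libraries, and 15 did. A second was how the knockdown differed from the control within each replicate number.

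RNA sequencing covered 4 libraries of the same line. The 2 labelled AURKA KD carry a knockdown of AURKA, which encodes the mitotic kinase Aurora A, and their titles call them shA. The 2 labelled control are titled shC, and the design text calls them mock-transfected; whether a hairpin was in them is not stated. The medium was L-15 with serum and antibiotics for all 4, and the text calls the 2 libraries of a group biological replicates. Nothing states separate days, so the spread between these samples may be partly technical. The p-values below rest on that spread after moderation over all tested genes. The hairpin sequence and the time of harvest are not given in the sources used here. AURKA measured 124 and 99.1 FPKM in control and 22.3 and 23.7 FPKM in knockdown libraries, and the groups do not overlap.

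Collagens are secreted or membrane-bound proteins built from chains that wind around each other in triple helices. The chains are hydroxylated, glycosylated and folded in the endoplasmic reticulum, and most types are then exported, trimmed and crosslinked outside the cell. Fibrillar types (I, II, III, V, XI) make the fibrils of connective tissue, type IV makes the network of basement membranes, type VI makes beaded filaments near the cell surface, and types XIII and XVII span the plasma membrane. In tumours much of the fibrillar collagen is laid down by fibroblasts, while carcinoma cells contribute chains of their own.

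The letters of 3 stretches upstream of start sites are shown because the chains they serve are compared below. Type IV chains COL4A1 and COL4A2 are transcribed away from each other from 1 stretch. Type VI chains COL6A2 and COL6A3 sit on different chromosomes. Sequences are from RefSeq on GRCh38.p14, 5′ to 3′, and stop before the transcription start. The type IV stretch is the whole interval between the 2 starts, 126 bases at chr13:110307158-110307283, on the forward strand, which is that of COL4A2. The other windows are the 250 bases before each start, at chr21:46097862-46098111 on the forward strand and chr2:237414165-237414414 on the reverse strand. Capitals mark the CCAAT word, the GC box GGGCGG and the TATA word TATAAA on either strand.
COL4A1-COL4A2: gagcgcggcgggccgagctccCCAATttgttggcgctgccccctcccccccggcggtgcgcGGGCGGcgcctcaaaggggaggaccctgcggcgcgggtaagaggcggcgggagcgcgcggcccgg
COL6A2: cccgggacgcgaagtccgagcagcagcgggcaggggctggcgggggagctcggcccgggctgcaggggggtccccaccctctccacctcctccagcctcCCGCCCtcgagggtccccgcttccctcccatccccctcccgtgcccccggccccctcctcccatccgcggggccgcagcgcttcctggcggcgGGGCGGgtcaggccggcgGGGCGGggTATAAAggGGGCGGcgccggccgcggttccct
COL6A3: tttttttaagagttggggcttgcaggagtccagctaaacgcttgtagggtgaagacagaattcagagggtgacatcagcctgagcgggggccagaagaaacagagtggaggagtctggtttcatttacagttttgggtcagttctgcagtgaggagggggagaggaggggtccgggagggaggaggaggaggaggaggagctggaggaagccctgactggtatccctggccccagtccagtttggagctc

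The type IV stretch is 80.2% G and C and holds 1 CCAAT and 1 GC box, with no TATAAA. The COL6A2 window is 79.6% G and C and holds 4 GC boxes and 1 TATAAA, while the COL6A3 window is 56.0% G and C and holds none of the words searched. Among all 35116 RefSeq windows of 250 bases, 32.0% hold CCAAT, 42.6% the GC box and 10.7% TATAAA. The type IV stretch is shorter, so these shares cannot be set against it. The words TGANTCA, known as the AP-1 site, and CACGTG, the E-box, were searched as well, on both strands, and stand in 6.6% and 6.3% of all windows. None of the marked words overlaps another within the 3 printed stretches. A window was found by symbol for 31 of the 43 members and for 12 of the 15 that reached 1 FPKM, not for COL1A1, COL6A1 or COL8A1. The 12 have 16 windows, since some genes have several starts and the 2 of COL5A1 lie 2 bases apart. The windows of COL4A1 and COL4A2 share the printed type IV stretch, so its words are counted in both. Of these 16, 10 held the GC box, 5 CCAAT, 1 the AP-1 word and 0 the E-box. TATAAA stood in 7, in genes COL6A2, COL7A1, COL10A1, COL13A1, COL17A1 and COL18A1. These matches describe letters and not bound sites.

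Summed FPKM of the family came to 303.3 and 239.2 in the controls and to 344.2 and 289.1 in the knockdown. Within each replicate number the knockdown total was the higher, 1.13-fold and 1.21-fold. COL13A1 alone made up 44.2% and 50.6% of the total in the controls and 47.2% and 47.7% in the knockdown. Without COL13A1 the total was 1.07-fold higher in the knockdown in replicate 1 and 1.28-fold in replicate 2. Summed by class, transmembrane collagens came first in every library, and basement membrane and beaded filament collagens came next. In both replicate 2 libraries type IV stood above type VI, at 48.9 against 35.0 FPKM in the control and 55.4 against 51.9 FPKM in the knockdown. In control replicate 1 the type IV and type VI classes were nearly level, at 59.1 and 59.3 FPKM, and in knockdown replicate 1 type VI stood above type IV, at 74.3 against 58.9 FPKM. Fibrillar collagens took between 4.18% and 5.14% of the family total.

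The 15 genes above the level spanned from COL13A1, over 120 FPKM in every library, to COL10A1 near 1 FPKM. Of these, 13 reached 1 FPKM in all 4 libraries, COL7A1 in 3 and COL10A1 in 2. Means over the 4 libraries were at 5 FPKM or more for 8 genes, namely COL13A1, COL4A2, COL6A1, COL6A2, COL4A1, COL18A1, COL12A1 and COL5A1. COL13A1 stood clear of the rest in this order. Ranges over libraries overlapped for COL4A2 with COL6A1, COL6A1 with COL6A2, COL4A1 with COL18A1, COL18A1 with COL12A1 and COL12A1 with COL5A1. COL6A2 lay above COL4A1 in every library and their ranges do not meet. COL8A1, COL6A3, COL27A1, COL1A1, COL17A1, COL7A1 and COL10A1 followed in that order, each overlapping with the next. Within libraries, COL4A1 was above COL18A1 and COL17A1 above COL7A1 in all 4, and the other overlapping neighbours changed places in at least 1 library. The files hold no read totals. From the value of 1 fragment in low genes the depth was put at about 17300000 and 24100000 fragments in the controls and 21200000 and 27500000 in the knockdown. Collagen messages are long, so that a few FPKM still rest on many fragments: roughly 280 to 800 for COL6A3, 1700 to 3800 for COL6A1 and 55 to 110 for COL10A1. Counting error alone is then near 2.4% for COL6A1 and 13.5% for COL10A1 in the library with the fewest.

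**Figure D1:**
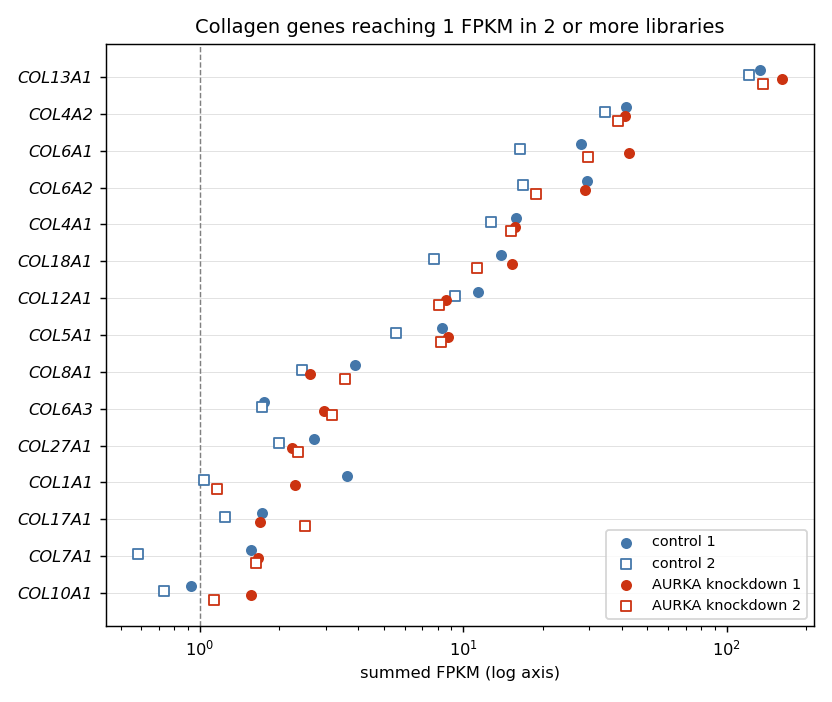
Summed FPKM (log axis) of the 15 collagen genes that reached 1 FPKM in at least 2 libraries, 1 marker per library, with control in blue, knockdown in red, replicate number 1 filled and replicate number 2 open. The dashed line is at 1 FPKM. COL13A1 lies above 120 FPKM in all libraries, and the red markers of COL6A1 and COL6A3 lie to the right of both blue ones.

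Comparing knockdown with control, limma without the replicate number as a term called 0 of the 15 genes at an adjusted p under 0.05, where 0% of all 12136 tested genes were called in either direction. At an unadjusted p under 0.05, it gave 1 member higher (COL6A3) and 0 lower, against 3.05% and 3.32% of all genes. What the replicate numbers stand for is not stated in the labels. In the files the control and knockdown tables of 1 number share their set of transcript IDs, which differs by 81 IDs each way between the numbers. This does not show that the libraries are paired. A second fit, planned as an alternative, took the replicate number as a term, called the replicate term below. It takes out the difference between the replicate numbers, which leaves little spread of its own to each gene. Its p-values therefore lean largely on the spread of other genes and do not measure that between these libraries. That fit called COL6A1 higher, 1 of 15, and 0 members lower, where 1.53% of all genes were called higher and 1.9% lower, 3.44% in either direction. At an unadjusted p under 0.05 that fit gave 4 members higher and 0 lower, against 11.2% and 11% of all genes. The median log2 difference of the 15, on the log2(FPKM + 1) scale, was 0.23 against 0.01 for all tested genes. It was -0.005 in replicate 1 and 0.30 in replicate 2, against -0.007 and 0.03 for all tested genes. Without control replicate 2 the median of the 15 was -0.03. COL7A1 (0.39) and COL10A1 (0.36) lie above the median of 0.23, and the filter favoured both to stand higher, as set out below. With a filter of 5 FPKM in at least 2 libraries, which left 8 members, the median was 0.17. These medians therefore support no shift of the family.

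In 7 of the 15 genes (COL5A1, COL6A1, COL6A3, COL7A1, COL10A1, COL13A1 and COL18A1) the knockdown was above the control in both replicate numbers, where 35.3% of all genes were, and COL12A1 was the 1 gene below it in both, where 31.7% were. In the other 7 the replicate numbers went opposite ways, where 32.9% of all genes did. Values of the 2 groups did not overlap, with the knockdown higher, in 5 genes (COL6A1, COL6A3, COL7A1, COL10A1 and COL13A1), against 19.4% of all genes, and with the knockdown lower in 1 (COL12A1), against 16.6%. With 2 libraries a group an exact permutation test cannot go below a two-sided p of 0.333, so a lack of overlap in 1 gene is no test result. COL10A1 passed the filter on low values through the knockdown libraries alone, and COL7A1 would not have passed on its controls, so both were favoured to stand higher and these counts support nothing. Without these 2, the groups did not overlap with the knockdown higher in 3 of 13 genes, and the knockdown was above the control in both replicate numbers in 5 of 13.

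**Figure D2:**
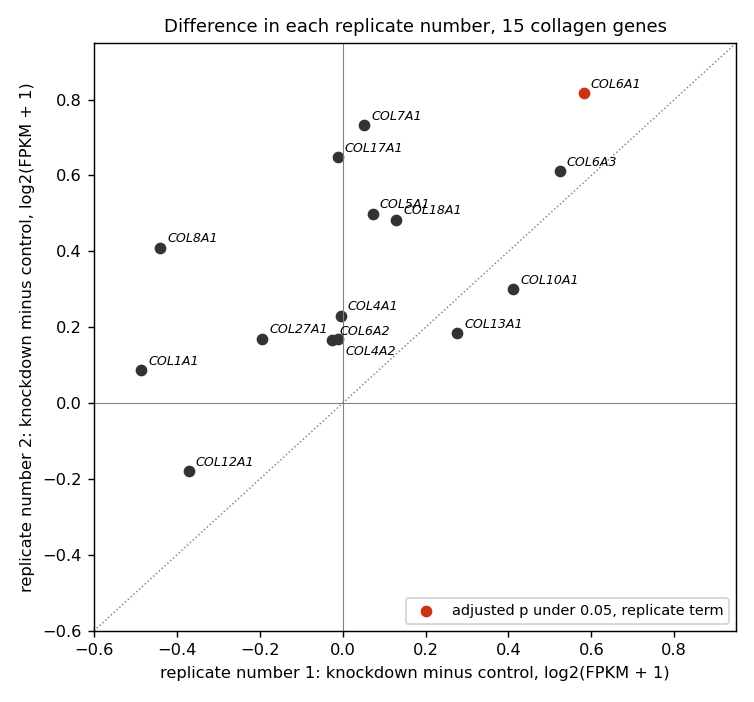
Knockdown minus control on the log2(FPKM + 1) scale in replicate number 1 (horizontal) and replicate number 2 (vertical) for the 15 collagen genes, with the dotted line at equal differences. COL6A1 (red) passed with the replicate term and lies farthest to the upper right, at 0.58 and 0.82, COL12A1 is the 1 gene below 0 on both axes, and COL8A1 and COL1A1 lie on opposite sides of 0 in the 2 replicate numbers.

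Type VI collagen assembles from COL6A1, COL6A2 and 1 further chain, usually COL6A3, into tetramers that form beaded filaments and link cells to the surrounding matrix. Its COL6A1 chain rose in the fit with the replicate term, COL6A3 stood higher without passing, and COL6A2 stayed within its spread. COL6A1 (ENSG00000142156, chromosome 21, 47401650 to 47424964 in GRCh37) measured 28.0 and 16.4 FPKM in control and 42.4 and 29.6 FPKM in knockdown libraries. Both knockdown values lay above both controls, and replicate 2 was the lower library in each group. Means were 22.2 ± 8.22 and 36.0 ± 9.03 FPKM (SD, n = 2 each), a 1.62-fold difference. The log2 difference was 0.70, 0.58 in replicate 1 and 0.82 in replicate 2, with a standard error of 0.30 and an adjusted p of 0.781 in limma without the replicate term, and a standard error of 0.098 and an adjusted p of 0.0195 with it. In that second fit, but with no filter on low values, the adjusted p was 0.384. The size depends on which control is used: without the replicate term and without control replicate 1 the log2 difference was 1.07, and without control replicate 2 it was 0.33.

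COL6A3 (ENSG00000163359, chromosome 2, 238232654 to 238323018) encodes the longest of these chains, whose tail is cleaved off as endotrophin. It measured 1.75 and 1.73 FPKM in control and 2.96 and 3.17 FPKM in knockdown libraries. Its libraries were tight within each group, 1.74 ± 0.018 and 3.06 ± 0.15 FPKM (SD, n = 2 each), and the knockdown was 1.76-fold higher. The log2 difference was 0.57, 0.52 in replicate 1 and 0.61 in replicate 2, with an adjusted p of 0.681 in limma without the replicate term and 0.0982 with it, which misses the threshold. COL6A2 (ENSG00000142173, chromosome 21, 47518010 to 47552763), the neighbour of COL6A1, measured 29.4 and 16.8 FPKM in control and 28.9 and 19.0 FPKM in knockdown libraries. It differed by -0.03 in replicate 1 and 0.17 in replicate 2 on the log2 scale, with an adjusted p of 0.718 in limma with the replicate term. The remaining genes of this class, COL6A5 and COL6A6, did not exceed 0.13 FPKM in any library.

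The ratio of COL6A1 to COL6A2 in FPKM was 0.953 and 0.976 in the controls and 1.47 and 1.56 in the knockdown, and the groups do not overlap. On the log2 scale the ratio was 0.62 higher in replicate 1 and 0.68 higher in replicate 2. The ratio of COL6A3 to COL6A2 was 0.060 and 0.103 in the controls and 0.102 and 0.167 in the knockdown, so that the groups overlap, while the difference within a replicate number was 0.78 and 0.70. COL6A1 and COL6A3 kept a closer ratio to each other within a replicate number, 0.063 and 0.070 in replicate 1 and 0.105 and 0.107 in replicate 2, and so followed the replicate number. COL6A1 is listed with 1 transcript of 4238 bases, so that its value does not depend on how reads were divided among transcripts. These ratios were chosen after their values were seen and have no test.

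**Figure D3:**
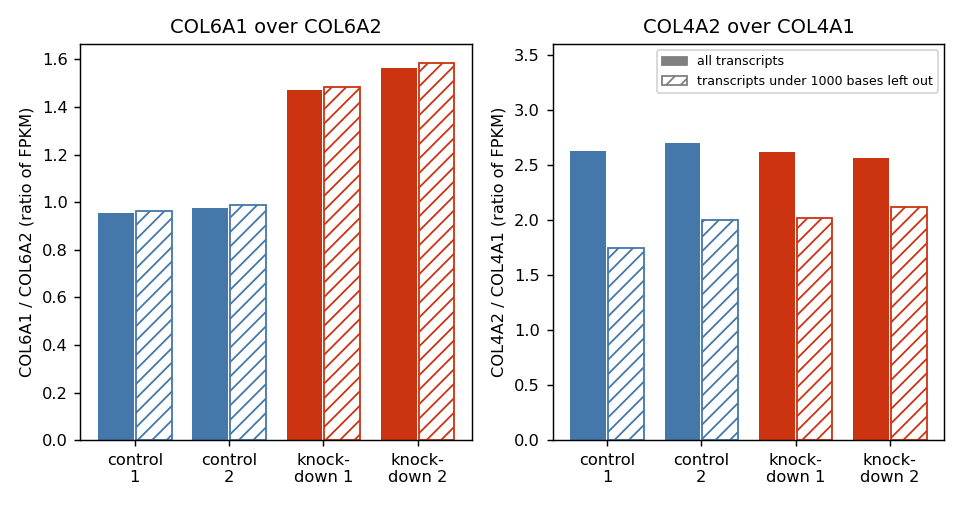
Ratio of FPKM between chains of type VI collagen (COL6A1 over COL6A2, left) and of type IV collagen (COL4A2 over COL4A1, right) in each library, with bars from 0, control in blue and knockdown in red. Filled bars sum all transcripts and hatched bars leave out those under 1000 bases. The type VI ratio is near 1 in the controls and near 1.5 in the knockdown either way, and the type IV ratio is level across libraries only when all transcripts are summed.

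Type IV collagen of most basement membranes pairs the COL4A1 and COL4A2 chains, and neither passed in either fit. The files give both genes the same joined locus, chromosome 13 from 110801317 to 111165374 (GRCh37); the stretch printed above lies between their starts. COL4A1 (ENSG00000187498) measured 15.8 and 12.7 FPKM in control and 15.8 and 15.1 FPKM in knockdown libraries, with an adjusted p of 0.589 in limma with the replicate term. COL4A2 (ENSG00000134871) measured 41.6 and 34.4 FPKM in control and 41.2 and 38.8 FPKM in knockdown libraries, with an adjusted p of 0.648. Control replicate 2 was the low library for both genes, and the groups overlap. COL4A2 over COL4A1 was 2.63 and 2.70 in the controls and 2.61 and 2.56 in the knockdown.

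That ratio rests on a short transcript of COL4A2. The one of 6494 bases measured 27.6 and 25.5 FPKM in control and 31.8 and 32.1 FPKM in knockdown libraries, and one of 484 bases measured 13.98 and 8.89 FPKM in control and 9.44 and 6.67 FPKM in knockdown libraries. The longer was thus higher in the knockdown and the shorter lower in both replicate numbers, and the shorter made up 33.6% and 25.9% of the gene in the controls and 22.9% and 17.2% in the knockdown. Without transcripts under 1000 bases, the ratio was 1.74 and 2.00 in the controls and 2.02 and 2.12 in the knockdown. The log2 difference of COL4A2 was then 0.26, with an adjusted p of 0.706 in limma without the replicate term and 0.0929 with it. Other type IV genes, which serve more specialised basement membranes, were lower: COL4A3, COL4A4 and COL4A6 stayed under 1 FPKM, and COL4A5 reached 1.13 FPKM in control replicate 2 alone. COL4A3 measured 0.476 and 0.334 FPKM in control and 0.753 and 0.475 FPKM in knockdown libraries, and COL4A4, which starts in the opposite direction with 418 bases between the starts, had 0.564 and 0.328 against 0.587 and 0.380 FPKM.

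The transmembrane collagen COL13A1, a component of cell adhesions, was the most abundant member by far (ENSG00000197467, chromosome 10, 71561643 to 71718904). It measured 134 and 121 FPKM in control and 162 and 138 FPKM in knockdown libraries. Both knockdown values lay above both controls, though knockdown replicate 2 exceeded control replicate 1 by little. Means were 128 ± 9.13 and 150.1 ± 17.4 FPKM (SD, n = 2 each), and the log2 difference of 0.23 (0.28 and 0.19 in replicates 1 and 2) had an adjusted p of 0.852 in limma without the replicate term and 0.153 with it. Without knockdown replicate 1 the difference was 0.11, and without knockdown replicate 2 it was 0.35. The tables divide the gene over 18 transcripts. The leading one of 1833 bases measured 35.8 and 42.4 FPKM in control and 41.8 and 44.3 FPKM in knockdown libraries, and 4 more exceeded 10 FPKM in every library. One of 749 bases took 18.1% and 16.8% of the gene in the controls and 22.9% and 17.0% in the knockdown. Another, with no length known, measured 2.79 and 0.01 FPKM in control and 6.26 and 8.51 FPKM in knockdown libraries. One of 2276 bases went opposite ways in the 2 replicate numbers. Without transcripts under 1000 bases the log2 difference of the gene was 0.185, with adjusted p of 0.816 without and 0.133 with the replicate term in limma. COL17A1, a component of hemidesmosomes, measured 1.72 and 1.24 FPKM in control and 1.69 and 2.52 FPKM in knockdown libraries. Its high value in knockdown replicate 2 came from a transcript of 537 bases at 1.27 FPKM, and the transcript of 5689 bases was between 1.10 and 1.24 FPKM in all libraries.

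COL18A1, a proteoglycan of basement membranes whose end is released as endostatin, measured 13.9 and 7.75 FPKM in control and 15.3 and 11.2 FPKM in knockdown libraries. Control replicate 2 was low and the groups overlap, with a log2 difference of 0.31 and adjusted p of 0.921 (limma, no replicate term) and 0.219 (with the replicate term). Its locus in the files is joined with that of SLC19A1, so that reads of the 2 genes may not be separable at their ends. A transcript of 5436 bases held between 86.8% and 93.0% of the gene in each library. COL7A1, the chain of anchoring fibrils, measured 1.57 and 0.58 FPKM in control and 1.66 and 1.63 FPKM in knockdown libraries. In these sums control replicate 2 stood alone, and the adjusted p was 0.331 in limma with the replicate term. The filter favoured the gene to stand higher, as set out above. Between 16.1% and 46.5% of its value came from a transcript of 597 bases. Its transcript of 9276 bases measured 0.96 and 0.46 FPKM in control and 0.89 and 1.37 FPKM in knockdown libraries, and there the groups overlap.

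COL12A1, a chain that decorates fibrils (the FACIT class), was the 1 member lower in the knockdown in both replicate numbers. It measured 11.4 and 9.27 FPKM in control and 8.57 and 8.07 FPKM in knockdown libraries. The groups do not overlap, and the gap between the nearest libraries is smaller than that between the 2 controls. Means were 10.3 ± 1.49 and 8.32 ± 0.35 FPKM (SD, n = 2 each), 1.24-fold apart, with a log2 difference of -0.28 (-0.37 and -0.18 in replicates 1 and 2) and adjusted p of 0.854 (limma, no replicate term) and 0.234 (with the replicate term). Without control replicate 1 the difference was -0.14, and without control replicate 2 it was -0.41. Its transcript of 11723 bases measured 6.56 and 6.18 FPKM in control and 5.22 and 5.05 FPKM in knockdown libraries. One of 8964 bases measured 2.40 and 1.74 FPKM in control and 1.34 and 1.15 FPKM in knockdown libraries. The other 9 FACIT genes did not reach 1 FPKM in 2 libraries.

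Of the 11 fibrillar genes, 3 reached the level, and none passed in either fit, with adjusted p of 0.884 to 0.998 without and 0.294 to 0.977 with the replicate term in limma. COL5A1, which helps to start and limit fibrils, measured 8.29 and 5.55 FPKM in control and 8.77 and 8.26 FPKM in knockdown libraries. COL27A1, a chain best known from cartilage, measured 2.71 and 1.99 FPKM in control and 2.25 and 2.36 FPKM in knockdown libraries. COL1A1, a chain of the main fibrils of skin and bone, measured 3.61 and 1.04 FPKM in control and 2.29 and 1.17 FPKM in knockdown libraries. It was high in both replicate 1 libraries, and between 57.9% and 64.0% of its value came from a transcript of 549 bases. Its full-length transcript of 6727 bases measured 1.35 and 0.44 FPKM in control and 0.87 and 0.42 FPKM in knockdown libraries. COL1A2, the partner of COL1A1, did not exceed 0.12 FPKM in any library, COL5A2, the partner of COL5A1, 0.77 FPKM, and COL3A1, the chain of type III collagen, 0.36 FPKM.

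The short-chain network genes COL8A1, found around vessels and in the cornea, and COL10A1, known from hypertrophic cartilage, reached the level as well. COL8A1 measured 3.89 and 2.44 FPKM in control and 2.61 and 3.57 FPKM in knockdown libraries, with opposite signs in the 2 replicate numbers (-0.44 and 0.41) and an adjusted p of 0.977 in limma with the replicate term. Without transcripts under 1000 bases it measured 1.86 and 1.87 FPKM in control and 2.21 and 2.53 FPKM in knockdown libraries. Its log2 difference was then 0.23, with adjusted p of 0.865 without and 0.35 with the replicate term. COL10A1 measured 0.93 and 0.73 FPKM in control and 1.56 and 1.13 FPKM in knockdown libraries. It passed the filter only through the knockdown libraries, so no adjusted p is given for it. Its log2 difference of 0.36 is not read as a result. It shares its locus in the files with NT5DC1 and AL121963.1, so that its reads are uncertain.

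The other 28 genes did not reach 1 FPKM in 2 libraries. Of these, 22 stayed under 0.5 FPKM in all libraries, 4 had their highest value between 0.5 and 1 FPKM, and COL4A5 and COL9A2 passed 1 FPKM in control replicate 2 alone (1.13 and 1.12 FPKM). The highest value was under 0.1 FPKM for 12 genes, and COL5A3 and COL25A1 were listed at 0 in all 4 libraries. Just below the level stood COL9A2, at 0.584 and 1.12 FPKM in control and 0.874 and 0.519 FPKM in knockdown libraries, and COL9A3, at 0.519 and 0.422 against 0.831 and 0.859 FPKM. Just above it stood COL10A1 and COL7A1. COL24A1 measured 0.077 and 0.128 FPKM in control and 0.298 and 0.360 FPKM in knockdown libraries, and COL15A1 had 0.160 and 0.151 against 0.402 and 0.309 FPKM. COL16A1 went the other way, with 0.324 and 0.388 FPKM in control against 0.226 and 0.172 FPKM in knockdown libraries. COL24A1, COL15A1 and COL16A1 were picked by their values. These 28 genes were not tested.

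**Figure D4:**
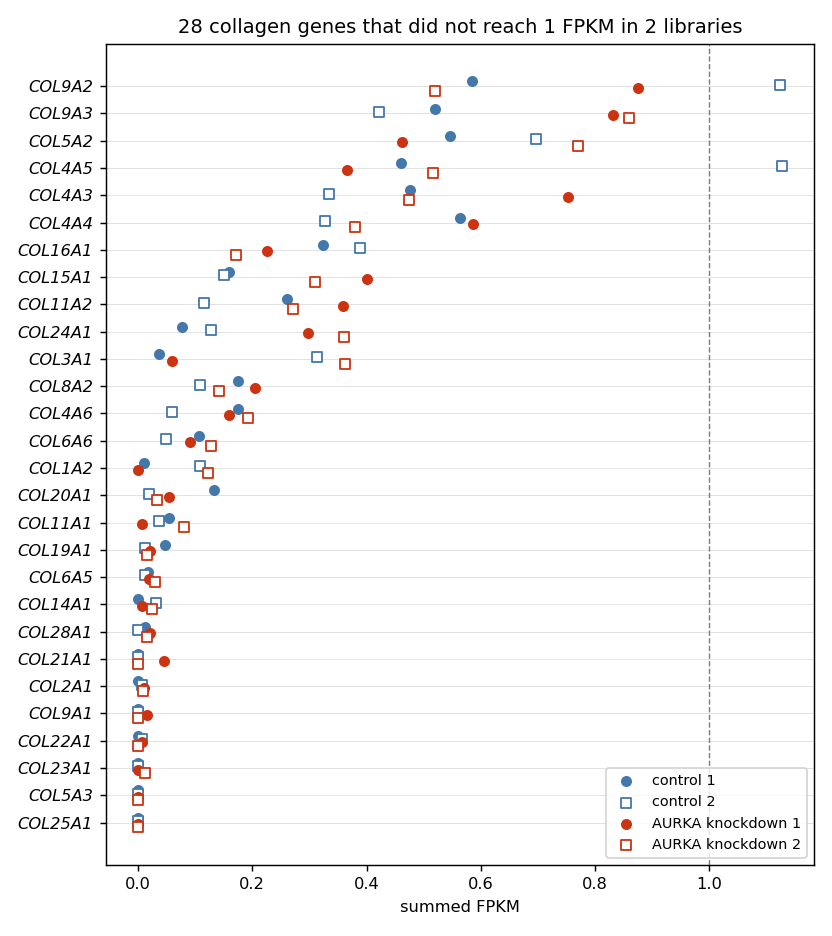
Summed FPKM of the 28 collagen genes that did not reach 1 FPKM in 2 libraries, 1 marker per library, with control in blue, knockdown in red, replicate number 1 filled and replicate number 2 open. The dashed line is at 1 FPKM. COL9A2 and COL4A5 cross it in control replicate 2, and the open markers of COL3A1 and COL1A2 lie to the right of the filled ones in each group.

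Short annotated transcripts weigh on the family's sums, since FPKM divides by length and few fragments on a short transcript give a large value. Without transcripts under 1000 bases, 13 members reached 1 FPKM in 2 libraries in place of 15, and COL1A1 and COL7A1 dropped out. Of the 13, the knockdown was above the control in both replicate numbers in 8, below it in both in 1 and opposite in 4, against 37.4%, 31.1% and 31.4% of the 11420 genes tested that way. COL10A1, which needed the knockdown libraries to pass, is among the 13. Their median log2 difference was 0.16 in replicate 1 and 0.30 in replicate 2. COL6A1 remained the 1 member called in limma with the replicate term, with an adjusted p of 0.00691 and an unchanged log2 difference of 0.70. Over all genes that fit called 354 higher and 404 lower, more than the 186 and 231 with all transcripts summed. Without the replicate term limma called 0 members and 0 of all genes. Leaving out short transcripts was an alternative added after seeing the data.

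Before export, procollagen is hydroxylated, folded and packed by a set of enzymes and chaperones in the endoplasmic reticulum. Of 23 such genes listed, 22 were matched and 21 tested. In limma with the replicate term, 1 rose, PLOD2, the lysyl hydroxylase that prepares collagen for stable crosslinks, and 0 fell, against 1.53% and 1.9% of all genes. PLOD2 measured 37.7 and 37.0 FPKM in control and 48.4 and 57.3 FPKM in knockdown libraries, with a log2 difference of 0.48 and adjusted p of 0.569 (limma, no replicate term) and 0.0486 (with the replicate term). The latter lies just under the threshold. Without the replicate term 0 passed, with 1 higher and 0 lower at an unadjusted p under 0.05, against 3.05% and 3.32% of all genes. With the replicate term, 3 were higher and 1 lower at that unadjusted p in limma, against 11.2% and 11% of all genes. The most abundant were PPIB, a prolyl isomerase (398 and 471 against 490 and 502 FPKM, adjusted p 0.267 in limma with the replicate term), and P4HB, the disulfide isomerase subunit of prolyl hydroxylase (179 and 248 against 214 and 281 FPKM, adjusted p 0.17). FKBP14, another prolyl isomerase, measured 8.97 and 4.75 FPKM in control and 5.60 and 4.27 FPKM in knockdown libraries (adjusted p 0.235 in limma with the replicate term). The list median was 0.09 on the log2 scale, against 0.01 for all tested genes.

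Outside the cell, procollagen proteinases trim the chain ends and lysyl oxidases crosslink them. Of 13 listed genes, 8 were tested and 0 passed in either fit of limma. Unadjusted, 1 was higher at a p under 0.05 without the replicate term (3.05% of all genes) and 2 with it (11.2%), and 0 were lower in both (3.32% and 11%). LOX measured 9.49 and 7.12 FPKM in control and 12.7 and 11.3 FPKM in knockdown libraries, with no overlap and an adjusted p of 0.0739 in limma with the replicate term. LOXL1 had 8.12 and 5.33 FPKM in control against 11.6 and 6.91 FPKM in knockdown libraries (adjusted p 0.126), and LOXL2, the most abundant of the 8, had 66.5 and 42.4 FPKM in control against 74.6 and 46.1 FPKM in knockdown libraries (adjusted p 0.344). The list median was 0.18.

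Collagen receptors read these chains at the cell surface, and 5 of 11 listed were tested, with 0 past the threshold in either fit of limma. Unadjusted, 0 had a p under 0.05 without the replicate term, where 3.05% and 3.32% of all genes were higher and lower, while with it 1 was higher and 1 lower, where 11.2% and 11% were. DDR1, a receptor tyrosine kinase for collagen, measured 11.3 and 7.94 FPKM in control and 17.3 and 11.5 FPKM in knockdown libraries, with a log2 difference of 0.53 and an adjusted p of 0.0526 in limma with the replicate term. The integrin chain ITGA2 measured 67.7 and 71.2 FPKM in control and 57.4 and 62.9 FPKM in knockdown libraries (adjusted p 0.192). Its partner ITGB1 had 431 and 459 FPKM in control against 430.3 and 427 FPKM in knockdown libraries (adjusted p 0.752).

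Basement membrane partners of type IV collagen had 12 of 17 genes tested, of which 2 rose in limma with the replicate term, LAMB1 and PXDN, and 0 fell, where 1.53% and 1.9% of all genes did. Without the replicate term 0 passed. Unadjusted, 1 was higher and 0 lower at a p under 0.05 without the replicate term, against 3.05% and 3.32% of all genes. With the replicate term, 5 were higher and 2 lower, against 11.2% and 11% of all genes. LAMB1, a laminin chain, measured 9.15 and 11.2 FPKM in control and 15.6 and 16.8 FPKM in knockdown libraries, with no overlap and adjusted p of 0.537 (limma, no replicate term) and 0.0341 (with the replicate term). PXDN, the peroxidase that crosslinks type IV collagen, measured 74.5 and 43.3 FPKM in control and 94.0 and 62.1 FPKM in knockdown libraries. Its groups overlap, and its adjusted p of 0.881 and 0.0499 lies at the threshold in the fit with the replicate term. LAMB3, the most abundant laminin chain here, had 244 and 229 FPKM in control against 213 and 187 FPKM in knockdown libraries (adjusted p 0.145 with the replicate term). LAMA3 had 3.16 and 1.20 FPKM in control against 1.30 and 0.47 FPKM in knockdown libraries (adjusted p 0.0768 with the replicate term). The list median was 0.13.

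Among matrix partners of fibrils and filaments, 7 of 11 were tested. With the replicate term FN1, the fibronectin gene, rose by 0.70 on the log2 scale (adjusted p 0.0131 in limma) and TGFBI, which binds several collagens, fell by 0.49 (adjusted p 0.0293), and neither passed without the replicate term, where 0 passed. Over all genes 1.53% and 1.9% were called in those directions with the replicate term. Unadjusted, 1 was higher and 1 lower at a p under 0.05 without the replicate term, against 3.05% and 3.32% of all genes. With the replicate term, 1 was higher and 1 lower as well, against 11.2% and 11% of all genes. FN1 had the same log2 difference as COL6A1 to 2 decimals, with 0.63 and 0.77 in replicates 1 and 2. The list median was -0.02.

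**Figure D5:**
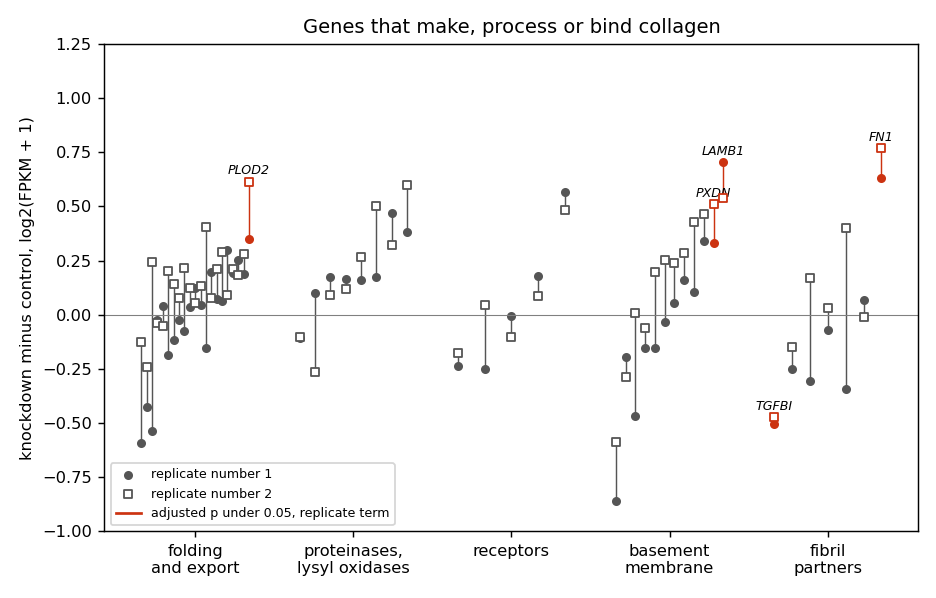
Knockdown minus control on the log2(FPKM + 1) scale for the tested genes of 5 lists, with replicate number 1 filled, replicate number 2 open and a line joining the 2 values of a gene. Red marks the genes past an adjusted p of 0.05 with the replicate term: PLOD2, LAMB1, PXDN and FN1 lie above 0 and TGFBI below it in both replicate numbers.

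Markers listed for a mesenchymal-like, triple-negative line were read, which cannot tell this line from others of that kind. VIM and CD44, listed as high, were between 1701 and 2068 FPKM and between 212 and 233 FPKM. Of those listed as low, ESR1, PGR and CDH1 did not exceed 0.27 FPKM. ERBB2 mRNA, also listed as low, went against the list, at 16.5 to 20.2 FPKM. Of 6 fibroblast markers, PDGFRB reached 1 FPKM (2.77 and 1.44 FPKM in control, 2.24 and 1.37 FPKM in knockdown libraries) and PDGFRA, DCN, LUM, FAP and THY1 did not. The 6 summed to 2.90 and 2.42 FPKM in the controls and to 2.40 and 2.07 FPKM in the knockdown, with DCN at 0 in both replicate 1 libraries and FAP at 0 in both replicate 2 libraries. CDH5, VWF and PTPRC did not exceed 0.11 FPKM. Summed FPKM ran from 718978 to 761641 per library. Fewer cells of a kind and less RNA per cell cannot be told apart in these bulk libraries.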

How the data were processed

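The authors deposited 1 table per library with an FPKM value for each of 81493 transcripts. The header names no unit, and FPKM was read from the values, which are not whole and whose totals differ. Per the submitters' processing notes, bcl2fastq 2.19, HTSeq 0.8.0 and hg38 were used, and which program gave the FPKM is not stated there. The files' loci follow GRCh37: one on chromosome 4 ends at 191013719, past the last annotated base of that chromosome in GENCODE 29 on GRCh38 (190196190).

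Tables were joined by transcript ID (81412 shared, 81 only in replicate 1 and 81 only in replicate 2) and summed by gene ID. The 12136 genes that reached 1 FPKM in 2 or more libraries were tested with limma-trend on log2(FPKM + 1) (limma 3.58.1, R 4.3.3), two-sided, with Benjamini-Hochberg adjustment over all of them and a threshold of 0.05, without and with the replicate number as a term. The fit was tested on simulated data built with the replicate difference and the spread of these same libraries. That test is no independent support for either fit. This scale shrinks the folds of low genes. The strand setting is not stated, so reads of genes that overlap, antisense ones included, are not separable.

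Across tested genes, the deviations of same-numbered libraries from their group means correlated at r = 0.645. Genes are not independent replicates. Estimated depths rest on genes with 1 transcript over 2000 bases and values under 0.3 FPKM, with 72 to 99 genes in the main cluster of each library, and are rough. Approximate fragment numbers use GENCODE 29 transcript lengths and cover counting error only.

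Every member above the level was named, with all 4 values for those at 5 FPKM or more or past the threshold. In each further list the genes past the threshold, the 2 most abundant and the 2 with the largest difference were named. Members and lists were chosen with earlier results of these data known. LEPREL2 and PECAM1 were not matched and not analysed here.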

Additional observations from a re-analysis of the deposited data

How the results depend on the processing

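The labels do not say what the replicate number marks, and 2 pairs alone do not show pairing, so the fit with the replicate block is given beside the fit without it. With the block, the count of called genes went from 0 to 186 higher and 231 lower over all genes, and from 0 to 1 for collagens (COL6A1, higher), 0 to 1 for folding and processing genes (higher) and 0 to 2 for receptors and basement membrane partners (higher), with 0 lower in each list. Block fits added after seeing the data called 1 collagen higher, COL6A1 (adjusted p 0.00282 to 0.0312), with upper-quartile or median-of-ratios scaling, pseudocount 0.1, the 5 FPKM filter or no transcripts under 1000 bases. Over all genes these block fits called 384, 327, 122, 192 and 354 higher and 487, 511, 165, 232 and 404 lower in that order. With no filter on low values, the block called 0. Without the block, median-of-ratios scaling called 2 higher and 1 lower over all genes, upper-quartile scaling 1 and 1, and the 5 FPKM filter 1 higher. Leaving out 1 library called 3 to 4 higher and 2 to 11 lower over all genes and 0 collagens.

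A level of 5 FPKM in place of 1 left 8 collagens. The collagen median of 0.23 ranged from -0.034 to 0.43 when 1 library was left out. Leaving out 1 library turned the direction of genes that had not passed. Without control replicate 2, COL18A1 was at -0.078, COL4A1 at -0.034, COL4A2 at -0.055 and COL6A2 at -0.32, and without control replicate 1 COL1A1 was at 0.39, COL27A1 at 0.14 and COL8A1 at 0.24. Without knockdown replicate 1, COL6A2 was at -0.22, COL27A1 at 0.014 and COL8A1 at 0.15, and without knockdown replicate 2 COL1A1 was at 0.10. Over the 4 such fits the log2 difference ran from -0.078 to 0.69 for COL18A1, -0.79 to 0.39 for COL1A1, -0.17 to 0.14 for COL27A1, -0.034 to 0.26 for COL4A1, -0.055 to 0.21 for COL4A2, -0.32 to 0.46 for COL6A2 and -0.27 to 0.24 for COL8A1. Genes that kept their sign moved as well: COL13A1 ran from 0.11 to 0.35, COL12A1 from -0.41 to -0.14, COL5A1 from 0.034 to 0.54, COL7A1 from 0.042 to 0.74 and COL17A1 from 0.13 to 0.51. The lone sample of a group was assumed to vary like the other group. COL8A1 was at 0.23 without transcripts under 1000 bases in both fits, against -0.015. Depth limits the members near 1 FPKM.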

Other observations

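Levels of several genes known from stromal cells differed between the replicate numbers, in both directions. COL3A1, a fibril chain, was listed at 0.036 and 0.060 FPKM in the replicate 1 libraries (control, then knockdown) and at 0.313 and 0.362 FPKM in the replicate 2 libraries. COL1A2, the partner of COL1A1, was listed at 0.010 and 0 against 0.109 and 0.122 FPKM. Higher in replicate 2 as well were DCN (0 and 0 against 0.464 and 0.342 FPKM), LUM (0 and 0.016 against 0.301 and 0.216 FPKM) and POSTN (0 and 0 against 0.307 and 0.287 FPKM). COL1A1 went the other way, with 3.61 and 2.29 FPKM in replicate 1 and 1.04 and 1.17 FPKM in replicate 2. So did PDGFRB, the most abundant of the 6 fibroblast markers, with 2.77 and 2.24 FPKM against 1.44 and 1.37 FPKM, and FAP, at 0.090 and 0.073 against 0 and 0 FPKM. These genes were chosen after their values were seen, all but COL1A1 and PDGFRB lie under the level tested, and the source of the difference was not tested.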
